A study of Caenorhabditis elegans with 6 samples.

Results

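The eggshell and permeability barrier genes of *C. elegans* were examined for their response to pRJ-Fr.5, a fraction of protease-treated royal jelly. These were 10 genes, namely *cbd-1*, *perm-2*, *perm-4*, *cpg-1*, *cpg-2*, *egg-1*, *egg-2*, *egg-3*, *chs-1* and *gna-2*, which were chosen by gene symbol, and every array probe annotated to 1 of these symbols was taken. They were 10 of 24747 genes on the array and had 23 of its 43603 probes. Of these 24747, 20270 had a symbol, and the rest are sequence names without one, which are counted as genes throughout. Worms of the wild-type strain Bristol N2, all hermaphrodites, were given pRJ-Fr.5 at 25 µg/ml over 24 h, beginning at L4, the last larval stage, or were left untreated as the control (0 µg/ml). The dose is the one in the methods, whereas the sample labels have 25 mg/ml. Both groups were fed UV-irradiated *E. coli* OP50, per the labels. Each group had 3 arrays, each hybridized with RNA from a pool of whole worms. The sources used here do not say whether the pools came from separate cultures, so that the p-values measure only the spread between these samples. They also do not say whether the array worms received FUdR, the drug that was used against self-fertilization in the lifespan assays.

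The *C. elegans* eggshell is assembled around the egg at fertilization from components that the oocyte has made in advance. Its outer vitelline layer holds the proteins CBD-1, PERM-2 and PERM-4. The middle layer is chitin, polymerized at the egg surface by the chitin synthase CHS-1 from a sugar nucleotide whose supply needs GNA-2. The inner layer holds the chondroitin proteoglycans CPG-1 and CPG-2, and a lipid-rich permeability barrier then forms beneath the shell. The membrane proteins EGG-1 and EGG-2 and the cortical protein EGG-3 organize this process at the oocyte surface, where fertilization, shell synthesis and egg activation are coupled. The transcripts are therefore known as products of the late oogenic germline, and in RNA from whole worms fewer cells of a type and less RNA per cell cannot be told apart.

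The 6 arrays differed in quality and lay on 2 slides. Slide 1 held replicates 1 and 2 of both groups, and slide 2 held replicate 3 of both. On the pRJ-Fr.5 arrays, 32820 to 34357 probes were well above background, against 27729 to 34549 on the control arrays, with the lowest number on control replicate 3. Control replicate 3 also had 207 outlier spots, against 5 to 9 on each of the other arrays. After removal of probes that were dim, or marked as outliers in all their spots, on any array, 27518 probes of 16060 genes were left. Of these genes, 14577 had a symbol. Expression is given as the log2 signal relative to the 75th percentile of the array, so that 0 is the 75th percentile and a difference of 1 is a 2-fold difference. Levels are compared between arrays and not between genes, because each probe has its own brightness.

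Every array detected all 23 probes of the eggshell genes above background, and 22 were used. The other probe, 1 of 7 for *cpg-1*, was marked as an outlier on control replicate 3 alone. All 10 genes averaged higher in pRJ-Fr.5 worms than in control worms, a direction that 54.4% of all genes tested shared, although *cbd-1* and *cpg-2* lay just below 0 when the arrays were scaled to the 75th percentile of the kept probes. The differences were small. Their median was 0.19 on the log2 scale (1.14-fold), with a range of 0.02 to 0.29, against a median of 0.03 over all genes. Only *egg-2* passed an adjusted p of 0.05 in limma with Benjamini-Hochberg adjustment over all genes (1 of 10), where 10.7% of all genes passed in this direction. With no adjustment, *egg-2*, *egg-3* and *chs-1* had p under 0.05 (3 of 10), against 20.2% of all genes in this direction. In 5 genes the lowest pRJ-Fr.5 array lay above the highest control array, against 24.6% of all genes. Exact permutation tests of 3 arrays against 3 (two-sided) gave p = 0.1 for these 5 genes, the smallest p such a test can give, and 0.2 to 0.9 for the rest.

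**Figure D1:**
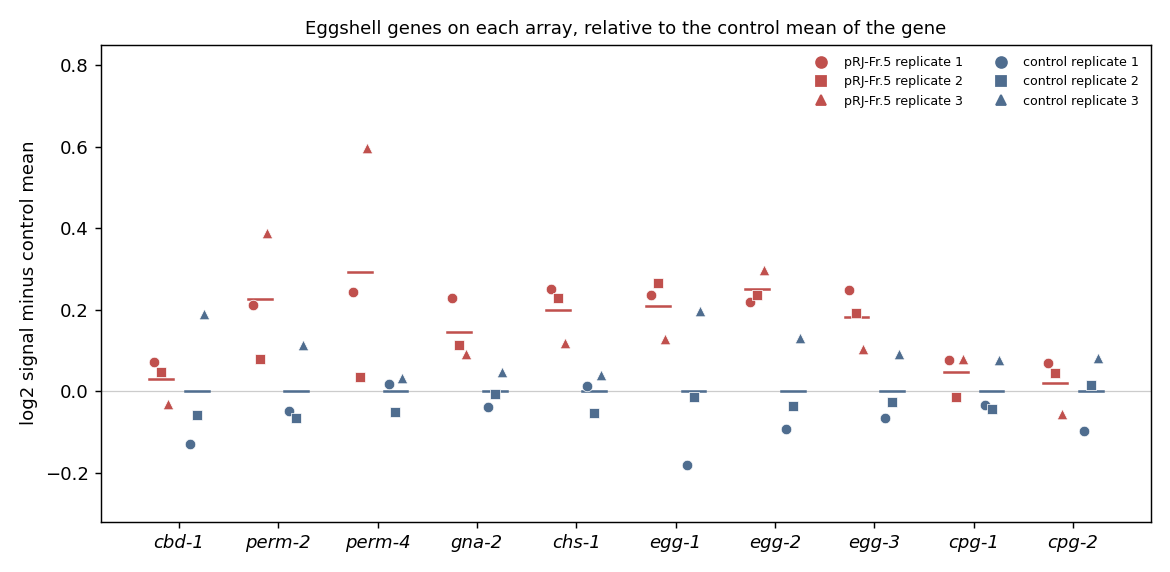
The log2 signal of each eggshell gene on each array is plotted as the difference from the gene's own control mean, with pRJ-Fr.5 arrays left of control arrays and horizontal lines at the group means (n = 3 each). The pRJ-Fr.5 means lie 0.02 to 0.29 above the control means, and control replicate 3 is the highest control array in all 10 genes.

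The vitelline layer genes differed from one another in how far the groups lay apart. The gene *cbd-1* (H02I12.1, 1 probe) encodes a chitin-binding protein that anchors the outer layer to the layers within. Its log2 signal was 4.80, 4.78 and 4.70 in pRJ-Fr.5 worms, against 4.60, 4.67 and 4.92 in control worms. The control arrays spread over a wider range than the pRJ-Fr.5 arrays and enclosed them. The means were 4.76 ± 0.05 in pRJ-Fr.5 worms and 4.73 ± 0.17 in control worms (SD, n = 3 each), a log2 fold change of 0.03 (SE 0.09, 95% confidence interval -0.20 to 0.25, limma adjusted p = 0.83).

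PERM-2 and PERM-4 are secreted proteins of the vitelline layer that are needed for the barrier. Their genes are neighbors, with 0 protein-coding genes between them in the RefSeq annotation. For *perm-2* (C44B12.1, 2 probes) the log2 signal was 4.14, 4.01 and 4.32 in pRJ-Fr.5 worms, against 3.88, 3.87 and 4.04 in control worms. The groups overlapped by a single pair, pRJ-Fr.5 replicate 2 and control replicate 3. The log2 fold change was 0.23 (SE 0.10, 95% confidence interval -0.01 to 0.46, limma adjusted p = 0.121), and 0.14 without pRJ-Fr.5 replicate 3. Both of its probes were higher in pRJ-Fr.5 worms, by 0.14 and 0.31, and only the second had groups that did not overlap.

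For *perm-4* (C44B12.5, 1 probe) the log2 signal was 2.69, 2.48 and 3.04 in pRJ-Fr.5 worms, against 2.46, 2.39 and 2.48 in control worms. The lowest pRJ-Fr.5 array and the highest control array were 0.00075 apart, which leaves the groups barely separate, and pRJ-Fr.5 replicate 3 stood above all the others. The log2 fold change was 0.29, with the widest interval of the 10 genes (SE 0.14, 95% confidence interval -0.04 to 0.62, limma adjusted p = 0.152). It was the largest of the 10 over all arrays, but without pRJ-Fr.5 replicate 3 it was 0.14. There it lay below those of *egg-1*, *chs-1*, *egg-2*, *egg-3* and *gna-2* and barely below that of *perm-2*.

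The genes for the chitin layer had separate groups but missed the threshold. GNA-2 is a glucosamine 6-phosphate N-acetyltransferase in the pathway to UDP-GlcNAc, the substrate of chitin synthase. The log2 signal of *gna-2* (T23G11.2, 1 probe) was 3.59, 3.47 and 3.45 in pRJ-Fr.5 worms, against 3.32, 3.35 and 3.40 in control worms. All pRJ-Fr.5 arrays lay above all control arrays, by a gap of 0.046. Its log2 fold change was 0.14 (SE 0.06, 95% confidence interval -0.01 to 0.30, limma adjusted p = 0.13).

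For *chs-1* (T25G3.2, 1 probe), the gene for the chitin synthase of the eggshell, the log2 signal was 3.72, 3.70 and 3.58 in pRJ-Fr.5 worms, against 3.48, 3.41 and 3.51 in control worms. The groups were separated by 0.077. The means were 3.67 ± 0.07 in pRJ-Fr.5 worms and 3.47 ± 0.05 in control worms (SD, n = 3 each). The log2 fold change was 0.20 (SE 0.06, 95% confidence interval 0.05 to 0.35), with a limma adjusted p of 0.0576. It passed the threshold under quantile normalization (limma adjusted p = 0.0479) and without pRJ-Fr.5 replicate 3 (limma adjusted p = 0.0438).

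The genes for the oocyte surface included the only gene that passed the test. EGG-1 and EGG-2 are related membrane proteins with LDL-receptor repeats, present on the oocyte and needed for fertilization and for eggshell formation. The log2 signal of *egg-2* (R01H2.3, 1 probe) was 4.16, 4.18 and 4.24 in pRJ-Fr.5 worms, against 3.85, 3.90 and 4.07 in control worms. The groups were separated by 0.088, the widest gap among the 10 genes. Its log2 fold change was 0.25 (SE 0.08, 95% confidence interval 0.07 to 0.43), or 1.19-fold (1.05 to 1.35), with a limma adjusted p of 0.0471. The call rested close to the threshold. It held in 7 of the 19 alternative settings that gave a test, with limma adjusted p from 0.0123 to 0.144, or 0.0815 by the methods' t-test. Omission of any 1 array other than control replicate 3 ended it, with limma adjusted p of 0.131 and 0.144 without control replicates 1 and 2, and 0.0618, 0.128 and 0.105 without pRJ-Fr.5 replicates 1, 2 and 3.

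Log2 signals for *egg-1* (B0244.8, 6 probes) were 1.83, 1.86 and 1.72 in pRJ-Fr.5 worms, against 1.41, 1.58 and 1.79 in control worms. Control replicate 3 reached into the range of the pRJ-Fr.5 arrays. All 6 probes were higher in pRJ-Fr.5 worms on average, by 0.15 to 0.32, and the gene had a log2 fold change of 0.21 (SE 0.10, 95% confidence interval -0.04 to 0.46, limma adjusted p = 0.167), which was 0.12 without control replicate 1. The sequences of *egg-1* and *egg-2* are alike, and whether their probes tell the transcripts apart was not tested.

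EGG-3 is a phosphatase-like protein without catalytic activity that holds CHS-1 and the kinase MBK-2 at the egg cortex. On the log2 scale *egg-3* (F44F4.2, 1 probe) had signals of 2.62, 2.56 and 2.47 in pRJ-Fr.5 worms, against 2.30, 2.34 and 2.46 in control worms. The groups did not overlap, with pRJ-Fr.5 replicate 3 and control replicate 3 nearly equal (0.012 apart). The log2 fold change was 0.18 (SE 0.07, 95% confidence interval 0.01 to 0.35, limma adjusted p = 0.0967).

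The chondroitin proteoglycans of the inner layer, which bind chitin and carry chondroitin chains, had small average differences. The log2 signal of *cpg-1* (C07G2.1, 6 probes used) was 4.65, 4.56 and 4.66 in pRJ-Fr.5 worms, against 4.54, 4.53 and 4.66 in control worms. Its log2 fold change was 0.05 (SE 0.06, 95% confidence interval -0.11 to 0.20, limma adjusted p = 0.59), with 0.03 to 0.08 when an array was left out, and its probes ranged from -0.01 to 0.12. For *cpg-2* (B0280.5, 2 probes) it was 4.92, 4.89 and 4.79 in pRJ-Fr.5 worms, against 4.75, 4.87 and 4.93 in control worms. Both genes had overlapping groups. Of the 2 probes of *cpg-2*, 1 was higher by 0.10 and the other had a log2 fold change of -0.06, and the gene had 0.02 (SE 0.07, 95% confidence interval -0.15 to 0.19, limma adjusted p = 0.849). For *cbd-1*, *cpg-1* and *cpg-2* the intervals reached at most 0.25, so that a larger increase in array signal lay outside them. These genes had the highest mean signals over their probes, which is a statement about brightness and not about amounts of RNA. The brightest single probe was 1 of *perm-2* (mean log2 signal 5.68 in pRJ-Fr.5 worms and 5.54 in control worms). Whether bright probes understate a difference was not tested.

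**Figure D2:**
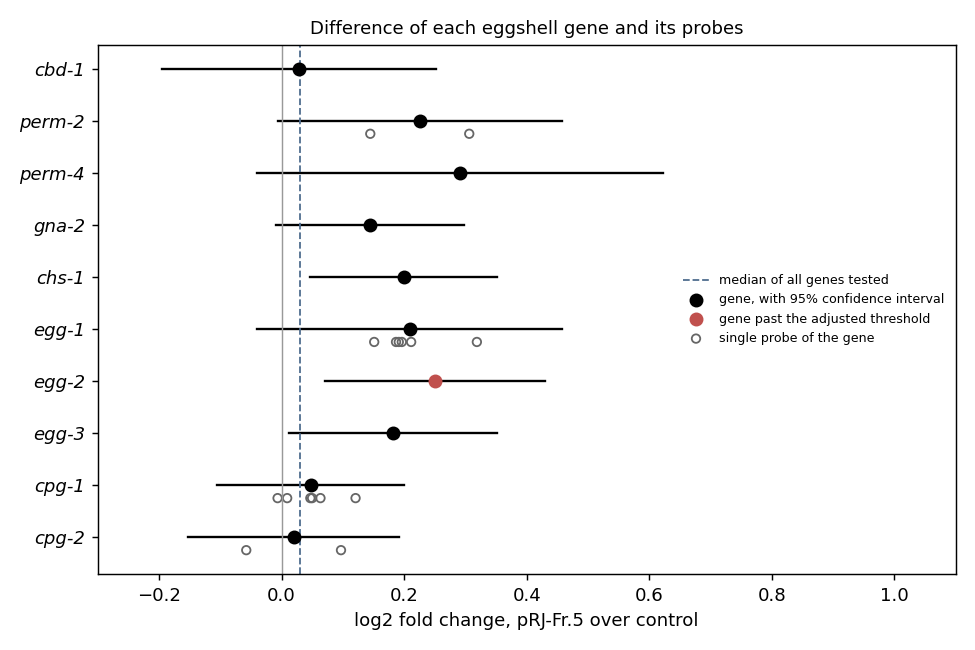
The log2 fold change of each eggshell gene (pRJ-Fr.5 over control) is plotted with its 95% confidence interval, single probes are open circles, and the dashed line is the median of all genes tested (0.03). Only *egg-2* passed the adjusted threshold, and the intervals of *egg-2*, *chs-1* and *egg-3* lie above 0.

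Over single probes, 20 of the 22 were higher in pRJ-Fr.5 worms on average and 2 were lower, 1 each of *cpg-1* and *cpg-2*. In the limma fit over all 27518 probes, 0 of the 22 passed the adjusted threshold, where 8.78% of all probes passed as higher, and the lowest adjusted p was 0.0543, for the probe of *egg-2*. With no adjustment, 4 probes had p under 0.05 (*egg-2*, *chs-1*, *egg-3* and the second of *perm-2*), against 19.1% of all probes in this direction.

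The differences were also taken within each of the 2 slides, and whether the slides differ was not tested. On slide 1, both pRJ-Fr.5 arrays lay above both control arrays in all 10 genes, which held for 39.4% of all genes. The median difference was 0.20, against 0.04 over all genes. These counts use the probes kept over all 6 arrays, and with the filter on slide 1 alone, where the seventh *cpg-1* probe entered, the groups were separate in 9 of the 10. With the probes kept over all 6 arrays, the slide 1 difference ranged from 0.07 for *cpg-1* to 0.35 for *egg-1*. On slide 2, with 1 array a group, the pRJ-Fr.5 array was above the control array in 7 of the 10 genes, against 46.4% of all genes. The median difference there was 0.03, against -0.03 over all genes. The slide 1 difference was the larger in 8 of the 10 genes, against 65% of all genes. The genes *cbd-1*, *cpg-2* and *egg-1* were lower in pRJ-Fr.5 worms on slide 2, by differences of -0.22, -0.14 and -0.07. The vitelline genes *perm-2* and *perm-4* ran the other way, with larger differences on slide 2 (0.27 and 0.56) than on slide 1 (0.20 and 0.16). Control replicate 3, the array with the fewest detected probes, was the highest control array in all 10 genes, against 51.8% of all genes. The part of its quality in these values was not tested. Without it, 8 of the 10 genes had separate groups, a count that is easier to reach with fewer arrays. The share of all genes with separate groups in that setting is not given here. The median log2 fold change without control replicate 3 was 0.22, against 0.05 over all genes.

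**Figure D3:**
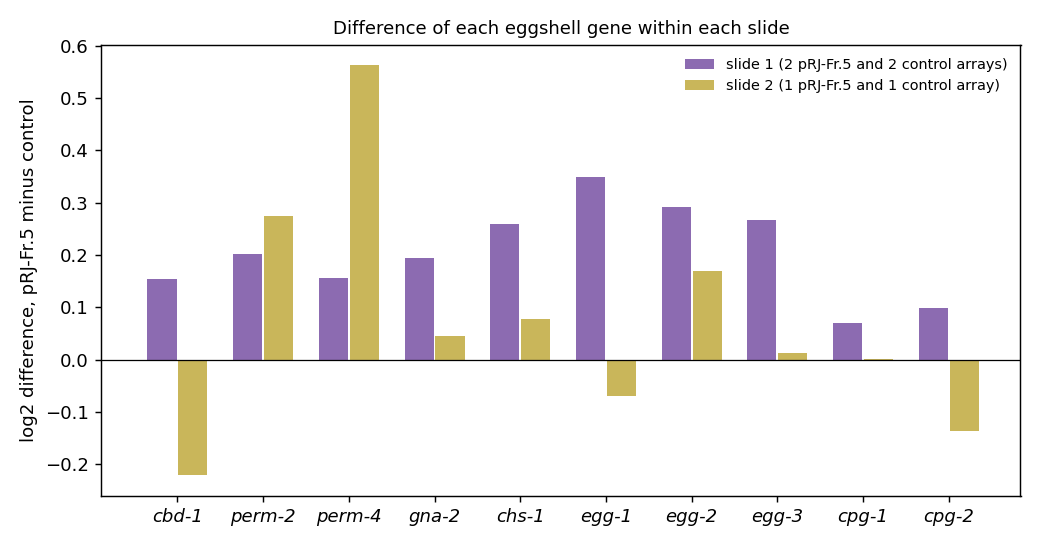
Bars give the log2 difference between pRJ-Fr.5 and control (pRJ-Fr.5 minus control) for each eggshell gene within slide 1 (mean of 2 arrays a group) and slide 2 (1 array a group). All 10 slide 1 bars are above 0, whereas on slide 2 *cbd-1*, *egg-1* and *cpg-2* are below 0 and *perm-4* reaches 0.56.

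Genes that act with the eggshell genes were compared from lists written from general knowledge. Over all genes, 10.7% passed the limma adjusted threshold as higher and 19.1% as lower in pRJ-Fr.5 worms, or 1717 and 3072 of 16060. These numbers also moved with an array left out. Without control replicates 1, 2 and 3, 765 of 16061, 641 of 16060 and 951 of 18502 genes passed as higher. Without pRJ-Fr.5 replicates 1, 2 and 3, 2181 of 16061, 538 of 16062 and 1146 of 16079 did. The numbers that passed as lower were 2212 to 3330. Of 12 tested enzymes that make the precursors of chitin and chondroitin, 11 averaged higher and 0 passed, with a median log2 fold change of 0.15. The largest difference was that of *sqv-6*, a xylosyltransferase that starts chondroitin chains, at 0.26 (limma adjusted p = 0.125). It was 0.15 without control replicate 3 and 0.19 without pRJ-Fr.5 replicate 2, and was then not the largest. The signal of *sqv-6* was low, at -4.63, -4.43 and -4.68 in pRJ-Fr.5 worms, against -4.70, -4.77 and -5.06 in control worms. Of 9 genes for barrier lipid synthesis or other perm genes, 7 averaged higher and 0 passed (median 0.15, with 6 higher after scaling to the kept probes). The lower genes were *fasn-1* (-0.16, limma adjusted p = 0.0881, groups that did not overlap) and *pod-2* (-0.11, limma adjusted p = 0.32). Both were lower in every alternative setting. The largest difference was in *cyp-31A3*, a cytochrome P450 needed for the barrier, at 0.24 (limma adjusted p = 0.0911). That of *cyp-31A3* was 0.15 without control replicate 1, and it was not the largest there or without pRJ-Fr.5 replicate 3.

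Egg activation and cortical granule genes had a median of 0.19, and all 8 tested averaged higher (7 with scaling to the kept probes, where *rab-11.1* was below 0). Of these, 2 passed, against 0 without control replicate 1, 2 or 3 or pRJ-Fr.5 replicate 2. With pRJ-Fr.5 replicate 1 or 3 left out, 1 passed. The gene *cav-1*, for a caveolin of oocyte granules, had a log2 signal of 2.98, 3.31 and 3.52 in pRJ-Fr.5 worms, against 2.68, 2.63 and 2.68 in control worms, a log2 fold change of 0.61 (limma adjusted p = 0.0158). The gene *mbk-2*, for the kinase that EGG-3 holds at the cortex, rose by 0.21 (limma adjusted p = 0.0377).

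The other chondroitin proteoglycan genes changed in both directions, with 1 of 5 higher and 2 lower past the threshold (median 0.16). The higher count was 0 without control replicate 1 or 2 or pRJ-Fr.5 replicate 2 and 2 without control replicate 3, and the lower count was 0 without control replicate 3 or pRJ-Fr.5 replicate 3 and 1 without control replicate 1 or 2 or pRJ-Fr.5 replicate 2. The gene *cpg-8* rose by 0.26 (limma adjusted p = 0.0185), whereas *cpg-7* and *cpg-9* had log2 fold changes of -0.40 and -0.62 (limma adjusted p = 0.0189 and 0.024). All 3 chitin genes of other tissues passed, with 1 higher gene in place of 2 when control replicate 1 or 2 or pRJ-Fr.5 replicate 2 was left out. The chitinase genes *cht-1* and *cht-3* were higher in pRJ-Fr.5 worms, by 0.75 and 0.31 (limma adjusted p = 0.00811 and 0.0214), and *chs-2*, the chitin synthase gene of the pharynx, had a log2 fold change of -0.53 (limma adjusted p = 0.00314).

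The eggshell genes were set beside markers of the cells that make or surround the egg. Of 18 genes for oocyte maturation or maternal RNA, all averaged higher (17 with scaling to the kept probes, where *rme-2* was below 0) and 3 passed, with a median of 0.20. The count was 0 without control replicate 1 or 2 or pRJ-Fr.5 replicate 2. In these fits 765, 641 and 538 of all genes passed as higher, against 1717 in the main setting. With pRJ-Fr.5 replicate 1 left out the oocyte count was 1 (2181 of all genes), and with quantile normalization 6 (2039 of all genes). The oocyte genes that passed in the main setting were *lin-41* (0.31), *mex-6* (0.28) and *nos-2* (0.24) (limma adjusted p = 0.0211, 0.039 and 0.0426). Of these, *lin-41* is a regulator of oocyte growth, *mex-6* encodes a zinc finger protein of early embryo polarity, and *nos-2* is a Nanos-family gene of the germline. General germline genes had a median of 0.08, with 11 of 13 higher (9 with quantile normalization and 10 with scaling to the kept probes) and 0 past the threshold. The largest difference was that of *pgl-3*, a P granule component, at 0.33 (limma adjusted p = 0.172), but it was 0.14 and not the largest without control replicate 3. On the single arrays, the median deviation of the eggshell genes from their control means was 0.22, 0.10 and 0.11 in pRJ-Fr.5 worms, against -0.06, -0.04 and 0.09 in control worms. The oocyte list had 0.25, 0.21 and 0.12 in pRJ-Fr.5 worms, against -0.08, -0.005 and 0.10 in control worms. In both lists pRJ-Fr.5 replicate 1 was the highest array and control replicate 3 was the highest of the controls.

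Sperm and embryo genes had larger differences. Of 12 sperm genes, 11 were lower in pRJ-Fr.5 worms past the threshold and 0 were higher, with a median of -0.62 and 11 to 12 past it with an array left out. Among those that passed were *spe-42*, *spe-10*, *spe-4* and *spe-11*, at -0.72, -0.70, -0.68 and -0.67. Of 7 genes that the embryo itself transcribes early, 6 were higher past the threshold, with a median of 0.55 and 5 to 7 past it with an array left out, among them *ceh-51*, *pes-10*, *tbx-37*, *sdz-38* and *end-3* at 0.74, 0.66, 0.61, 0.55 and 0.44. A further 5 embryo genes on the array were not tested because their probes did not pass the filter.

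The summed signal of the 10 sperm markers tested (11 in the list) was 3.15 to 3.28 on pRJ-Fr.5 arrays, against 3.68 to 3.79 on control arrays, as log2 relative to the 75th percentile. That of the 5 embryo markers tested (9 in the list) was 0.10 to 0.24 on pRJ-Fr.5 arrays, against -0.26 to -0.19 on control arrays. The brightest of these 5, *elt-7*, weighs most in the sum and had the smallest log2 fold change among them (0.24). Whether tissues other than the embryo add to its signal was not tested. The 6 oocyte markers, all tested, had overlapping ranges of the sum, 6.48 to 6.57 on pRJ-Fr.5 arrays, against 6.39 to 6.51 on control arrays. This sum gives most weight to the brightest marker, *rme-2*, with a log2 fold change of 0.02. The median deviation of the 6 from their control means did not overlap, at 0.13 to 0.26 on pRJ-Fr.5 arrays, against -0.08 to 0.11 on control arrays. Every tested marker was well above background on all arrays, because the filter required it. The sperm gene *spe-9* and the embryo genes *end-1*, *med-1*, *med-2* and *tbx-38* were not well above background on every array. The part of cell composition in the eggshell values was not tested. In the somatic gonad list 1 of 6 genes passed the threshold as higher (*inx-8*, 0.25, a gap junction protein) and 1 passed as lower (*ceh-18*, -0.28, a sheath cell transcription factor), of which *inx-8* passed in none of the fits with an array left out and *ceh-18* did not pass without control replicate 1, 2 or 3 or pRJ-Fr.5 replicate 2. Of the 6 genes for vitellogenin, the yolk protein made in the intestine, only *vit-6* passed (0.21, limma adjusted p = 0.0476), with a median of 0.03, and with an array left out a gene passed only without pRJ-Fr.5 replicate 1.

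**Figure D4:**
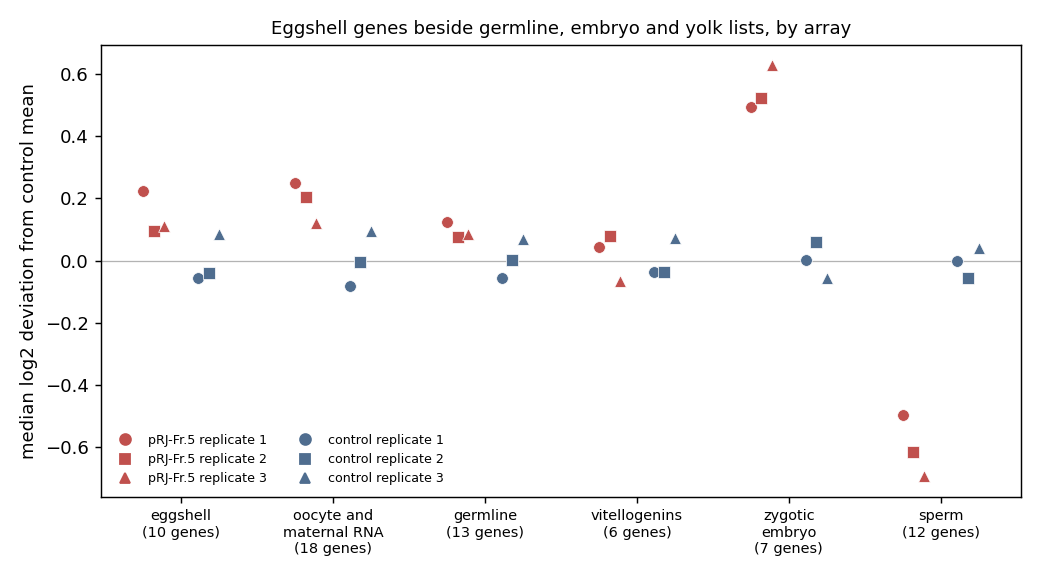
Each point is the median log2 deviation of a gene list from its control means on 1 array, with pRJ-Fr.5 arrays left of control arrays. The eggshell and oocyte lists lie between -0.08 and 0.25 and control replicate 3 comes close to the pRJ-Fr.5 arrays, whereas the embryo list (0.49 to 0.63) and the sperm list (-0.70 to -0.50) lie far from the control arrays in all 3 pRJ-Fr.5 arrays.

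The eggshell genes did not all follow 1 profile. The correlation of each with the mean of the other 9 over the 6 arrays ran from 0.42 for *cpg-2* to 0.95 for *egg-2*, as a description over arrays that share group and slide. The genes outside the group with the profile most like the mean of all 10 were *mes-2*, *hmp-1*, *sedl-1*, *zhp-3* and *pkc-3*, with Pearson r of 0.995 to 0.998 over 6 arrays. With so few arrays a high r is common, and 1014 of 16050 genes (6.32%) had an r of at least 0.9.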

How the data were processed

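RNA from whole worms was measured on 1-color Agilent *C. elegans* arrays. The authors processed the scanned images with Agilent Feature Extraction 10.7.1.1 and deposited the resulting intensity of every spot, which is corrected for background but not normalized between arrays. They also deposited a table of a linear ratio, the signal of a probe over the 75th percentile of its array, as checked here against the intensities (99.99% of values).

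Intensities were converted to log2, averaged over the spots of each probe without an outlier mark, and shifted by the array's 75th percentile over all probes. Probes were required to have a spot without an outlier mark on each of the 6 arrays. They also had to be positive, significant and well above background on each array, in at least 0.5 of their spots without a mark. Genes were given the mean of the remaining probes. Symbols came from RefSeq (WBcel235) through the sequence name, for 80.0% of probes. No coordinates are printed, since the array design uses another build.

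Differences were tested by lmFit and eBayes of limma 3.58.1 (R 4.3.3) with no blocking term and with Benjamini-Hochberg adjustment over all genes or probes and a threshold of 0.05. Intervals are 95% confidence intervals from the fit. The fit was tested on simulated data. The members and lists were chosen with earlier results of these data known. Named genes were all members, up to 5 genes past the threshold in each direction from each other list, the largest difference of a list where none passed, and the 5 genes with the most similar profile. A gene that this rule names is not reported here. Arrays of the same replicate number did not deviate together (r = -0.22, 0.06 and -0.01), and no 2 arrays held the same values. Saturated spots numbered 0, and the number of arrays limits the precision. Alternatives were the methods' t-test, normexp background correction with an offset of 50, other scalings and filters, the series table, the replicate number or slide as a block, each slide alone, the brightest probe in place of the mean, and each array left out in turn.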

Additional observations from a re-analysis of the deposited data

How the results depend on the processing

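The median log2 fold change of the 10 eggshell genes (0.19) stayed between 0.14 and 0.22 in every alternative except slide 2 alone, where it was 0.029. The number past the adjusted threshold, 1 in the main setting, was 0 with the methods' t-test, with scaling to the median, with no filter on dim probes, with probes kept when 1 group detected them throughout, with the replicate number as a block, on slide 1 alone, and with the 75th percentile over probes without an outlier mark, which was added after the data were seen. It was 2 with quantile normalization (*egg-2* and *chs-1*), and 0 to 1 with an array left out. The number with separate groups, 5 in the main setting, was 2 with scaling to the median, 9 on slide 1 alone, and 5 to 8 with an array left out (8 without control replicate 3). The shares over all genes in these alternatives are not given here, and groups of fewer arrays separate more easily. Among the alternatives that gave a test, the direction changed only for *cbd-1* and *cpg-2*. For *cbd-1* the log2 fold change was -0.00024 with the 75th percentile of kept probes, -0.00099 without control replicate 2, and -0.036 to 0.123 over all arrays left out in turn (lowest without control replicate 1, highest without control replicate 3). For *cpg-2* it was -0.0093 with the 75th percentile of kept probes, -0.0052 without pRJ-Fr.5 replicate 1, and -0.029 to 0.0605 over all arrays left out in turn (lowest without control replicate 1, highest without control replicate 3). On slide 2 alone, where no test was possible, *cbd-1*, *cpg-2* and *egg-1* were lower.

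Over all genes, 4789 passed in the main setting, against 2676 with no filter, 2802 on slide 1 alone, and 2750 to 5511 with an array left out. Over probes, 6883 passed, against 4477 with the methods' t-test, 3587 with no filter, 3705 on slide 1 alone, and 3857 to 8235 with an array left out. With the replicate number as a block, *egg-2* had a limma adjusted p of 0.0788 and no eggshell gene passed. The cause of these differences was not tested.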
